A study of Rattus norvegicus with 30 samples.

Results

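The set described here holds 34 genes of meiotic recombination and of the attachment of telomeres to the nuclear envelope. Members were listed by name, and a row of the expression table was taken as a member when its Entrez Gene identifier belonged to 1 of these rat symbols. Of the 34 genes, 27 were found among the 17322 genes of the table, while Iho1, Mnd1, Rad51ap2, Rnf212, Tex11, Terb1 and Atr were not. The genes found were 8 of 9 for break formation and the chromosome axis, 10 of 12 for strand invasion, 5 of 7 for crossover formation, 2 of 3 for telomere attachment and 2 of 3 for break signalling.

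Poly(A) RNA was measured in testes and cultured testicular tissue of Wistar Han rats, to compare the first wave of spermatogenesis in the animal with its course in organotypic culture. Uncultured testes were taken at 6 ages, namely 8.5 and 14.5 days post partum (dpp), then 24.5 and 30.5 dpp, then 36.5 and 53.5 dpp, with 3 libraries per age except 14.5 dpp. At 14.5 dpp 2 libraries were used, because the other was titled an outlier and was listed at 0 for all genes. For culture, testes taken at 8.5 dpp were divided into 6 fragments, which were kept on agarose at the boundary of gas and medium, at 34 °C under 5% CO2, in αMEM with 10% KnockOut serum replacement, retinol, 3.4 mM vitamin E and gentamicin. Explants were collected after 6 days (D6, matching 14.5 dpp by age), 16 days (D16, 24.5 dpp), 22 days (D22, 30.5 dpp) or 28 days of culture (D28, 36.5 dpp), with 3 libraries each. Each cultured library pooled explants of several males.

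In meiotic prophase, SPO11 and its partners cut the chromosomes at places that PRDM9 marks on chromatin, along an axis that carries HORMAD1 and HORMAD2. The broken ends are coated by the recombinase DMC1, which is loaded with the help of BRCA2 and searches for the homologous chromosome, and the MSH4-MSH5 complex, HFM1 and MLH3 turn part of the joined intermediates into crossovers. Meanwhile TERB1, TERB2 and MAJIN hold the telomeres at the nuclear envelope, where they are moved so that homologs can meet. In the prepubertal testis the first spermatocytes pass through these steps as a wave, before any spermatid is present.

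Levels are given in FPKM, fragments scaled to transcript length and to the mapped reads of the library, as the authors deposited them. Groups were compared by limma on log2(FPKM + 1), and a gene was called when its adjusted p was at most 0.05 over all genes tested and the ratio of the group medians was at least 2. Genes were tested when at least 1 group of a fit had a median of 0.5 FPKM or more, so a gene under that level in the lower group could be tested only through groups where it is higher, and such members are named beside the counts. A difference on this scale understates the change of genes with low levels. The sequencing depth of the libraries is unknown; they listed from 12520 to 13563 genes with a level above 0. An exact 0 may be a failed estimate, since Hprt1 and Ppia, which are used by all cells, were listed at 0 in all 29 libraries. In whole tissue, fewer cells of a type and less RNA per cell cannot be told apart.

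The promoters of the members were read from a RefSeq table of the rat (build GRCr8, 250 bases before to 50 after the start), which held 21 of the 27 members and 33469 promoters in all. The motif of STRA8, the retinoic acid induced factor of meiotic entry, was searched as CNCCTCAG on both strands and was found in 5 of the 21 members (23.8%), in 5 of 20 other recombination genes and in 8.86% of all promoters. The MYB core CAACNG was present in 11 members (52.4%), in 7 of 20 other recombination genes and in 36.2% of all promoters. Among the members the CRE TGACGTCA was found in Rad51c alone, against 1 of 20 other recombination genes and 1.83% of all promoters. The E2F core TTTCGCG was found in 0 of the 21 windows, in 2 of 20 other recombination genes and in 0.819% of all promoters. Overlap between motifs was not counted, and a match describes these letters only. The windows of the 5 members with the STRA8 motif are printed 5′ to 3′, with the match in capitals; they lay at chr1:65198688-65198987 on the minus strand (Prdm9), chr14:83523401-83523700 on the minus strand (Hormad2), chr12:4895197-4895496 on the plus strand (Brca2), chr10:58445083-58445382 on the plus strand (Spata22) and chr14:3002341-3002640 on the plus strand (Hfm1).
Prdm9: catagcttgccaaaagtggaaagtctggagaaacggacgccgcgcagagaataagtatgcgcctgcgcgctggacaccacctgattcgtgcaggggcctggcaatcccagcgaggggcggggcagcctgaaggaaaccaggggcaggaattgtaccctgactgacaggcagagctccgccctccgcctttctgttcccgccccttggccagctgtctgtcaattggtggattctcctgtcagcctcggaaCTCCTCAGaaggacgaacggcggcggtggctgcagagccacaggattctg
Hormad2: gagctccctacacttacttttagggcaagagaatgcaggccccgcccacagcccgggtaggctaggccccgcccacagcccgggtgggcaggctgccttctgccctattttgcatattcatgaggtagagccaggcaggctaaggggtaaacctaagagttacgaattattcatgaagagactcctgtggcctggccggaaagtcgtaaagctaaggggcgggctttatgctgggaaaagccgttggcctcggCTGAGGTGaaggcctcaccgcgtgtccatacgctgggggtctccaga
Brca2: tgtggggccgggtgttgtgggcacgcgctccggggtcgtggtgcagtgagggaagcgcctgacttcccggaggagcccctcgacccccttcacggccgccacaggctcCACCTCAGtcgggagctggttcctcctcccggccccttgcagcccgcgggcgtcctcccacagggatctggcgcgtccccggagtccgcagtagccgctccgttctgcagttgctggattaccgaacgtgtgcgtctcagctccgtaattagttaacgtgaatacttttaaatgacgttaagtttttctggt
Spata22: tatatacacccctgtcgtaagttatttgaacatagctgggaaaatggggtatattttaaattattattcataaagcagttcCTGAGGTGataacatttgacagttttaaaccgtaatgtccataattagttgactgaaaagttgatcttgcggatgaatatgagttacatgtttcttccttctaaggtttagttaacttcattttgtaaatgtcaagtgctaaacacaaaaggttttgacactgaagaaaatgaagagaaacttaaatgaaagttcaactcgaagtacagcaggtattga
Hfm1: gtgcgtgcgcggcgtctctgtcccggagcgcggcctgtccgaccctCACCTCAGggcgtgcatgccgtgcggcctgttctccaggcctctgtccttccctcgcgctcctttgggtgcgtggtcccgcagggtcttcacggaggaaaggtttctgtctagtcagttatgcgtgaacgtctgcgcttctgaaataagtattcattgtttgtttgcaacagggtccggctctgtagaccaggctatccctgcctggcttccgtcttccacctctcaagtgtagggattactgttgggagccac

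In the growing testis, the members were highest at 24.5 dpp. The highest group median lay at 24.5 dpp for 20 of the 27 genes, at 14.5 dpp for 5 (Mei4, Rec114, Trip13, Brca1 and Tex15), at 30.5 dpp for Eme1 and at 53.5 dpp for Psmc3ip. Their summed level was 114, 112 and 125 FPKM in the testes of 8.5 dpp, 189 and 269.6 at 14.5 dpp, 724, 724 and 745 at 24.5 dpp, 459.6, 367 and 427 at 30.5 dpp, 334, 322 and 349 at 36.5 dpp and 257, 247 and 259 at 53.5 dpp. No library of another age reached the sums of 24.5 dpp, and Hormad1 was the most abundant member over all libraries.

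**Figure D1:**
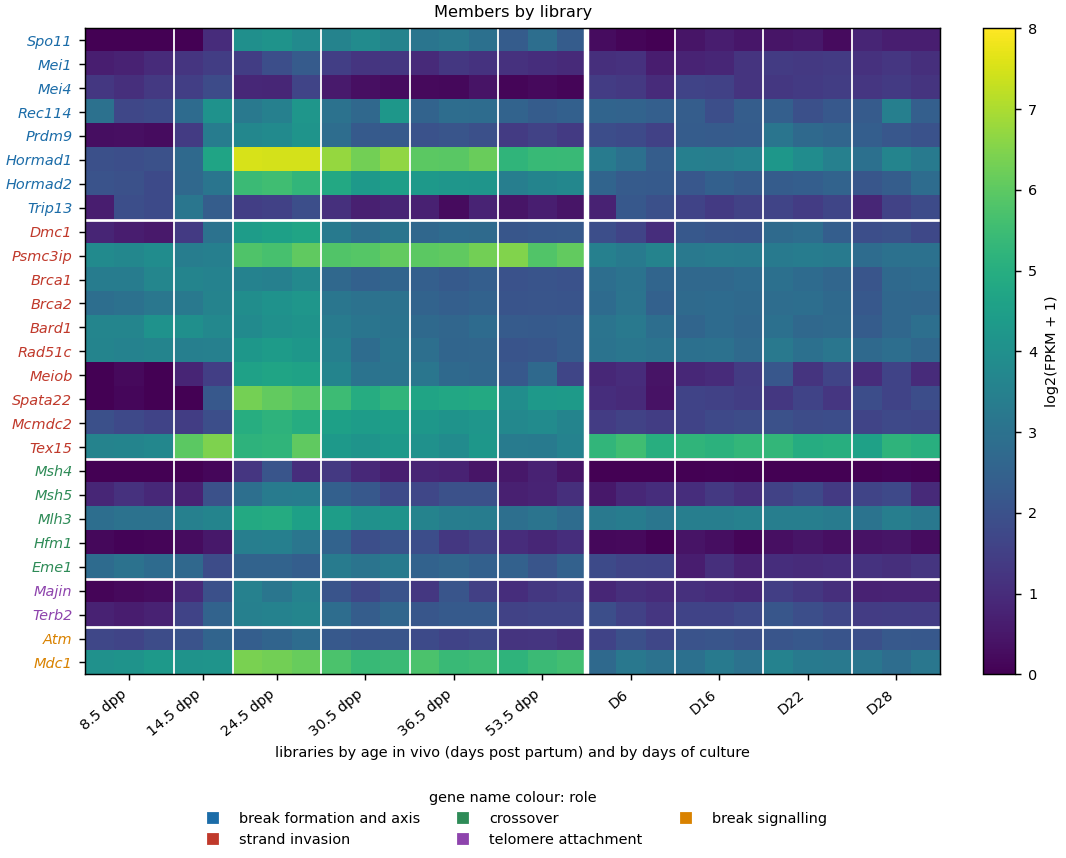
Level of the 27 members (rows, by role) in each of the 29 libraries (columns, by in vivo age and by days of culture), as log2(FPKM + 1) on a colour scale from 0 to 8. The testes of 24.5 dpp hold the highest median of 20 members, and Hormad1 reaches 177 to 183 FPKM there.

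From 8.5 to 14.5 dpp, 11 of the 27 members rose and 0 fell by limma (2 were lower at an unadjusted p under 0.05), while 8.37% of the 12531 genes tested were called higher and 6.32% lower. From 14.5 to 24.5 dpp, 16 rose and 3 fell (Mei4, Trip13 and Tex15), against 14.2% of all genes higher and 21.4% lower, and the median difference of the members was 1.48 against -0.13 over all genes. From 24.5 to 30.5 dpp, 13 fell and 0 rose by limma (24.5% and 13.1% of all genes; 1 member was higher at an unadjusted p under 0.05), with a median difference of -0.88 in the members and -0.32 over all genes. From 30.5 to 36.5 dpp limma called 0 members (6.08% of all genes higher, 1.4% lower), although 12 had an unadjusted p under 0.05, all of them lower. From 36.5 to 53.5 dpp only Msh5 was called, as lower (2.62% of all genes higher, 3.93% lower). With quantile normalization 5 members had an unadjusted p under 0.05 from 30.5 to 36.5 dpp, and 4 in place of 14 from 36.5 to 53.5 dpp. Of the rises, Prdm9, Meiob and Majin were under 0.5 FPKM at 8.5 dpp and Hfm1 and Msh4 at 14.5 dpp, which leaves 8 and 14 members with both medians at that level; of the falls to 30.5 dpp, Mei4 was under it. Neighbouring steps share the libraries of the age between them. The first step rests on the 2 testes of 14.5 dpp: without replicate 2, 5 members rose, with Mei1, Rec114, Hormad1, Hormad2, Meiob and Majin no longer called, and without replicate 1, 13 rose and 1 fell, with Mei1 and Trip13 no longer called. Without replicate 2 or replicate 3 of 30.5 dpp, 1 member was called from 30.5 to 36.5 dpp. Without replicate 1 or 3 of 53.5 dpp, or replicate 2 or 3 of 36.5 dpp, 2 members were called in the last step.

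Among the genes of break formation, Spo11, which encodes the subunit that cuts DNA, was listed at 0, 0 and 0 FPKM at 8.5 dpp and at 0 and 1.0 at 14.5 dpp. It then measured 14.8, 16.4 and 13.2 at 24.5 dpp, 10.8, 13.5 and 11.0 at 30.5 dpp, 7.60, 8.31 and 6.74 at 36.5 dpp and 3.99, 6.46 and 4.05 at 53.5 dpp. The testes of 24.5 dpp thus lay above all younger ones without overlap, and the difference from 14.5 dpp was 3.48 (standard error 0.24, adjusted p = 2.52e-08). Prdm9, which encodes the histone methyltransferase that places the breaks, was called higher at 14.5 than at 8.5 dpp, and the 2 testes gave 1.63 and 9.30 FPKM against 0.216, 0.250 and 0.210 at 8.5 dpp. At 24.5 dpp Prdm9 stood at 12.0, 13.3 and 16.5 FPKM, and the older testes held 6.26, 3.80 and 3.83 (30.5 dpp), 3.04, 3.31 and 2.84 (36.5 dpp) and 1.63, 2.01 and 1.54 (53.5 dpp). The testes of 8.5 dpp were under the filter, so Prdm9 was tested through the later ages, and its rise from 14.5 to 24.5 dpp was 1.51 (standard error 0.38, adjusted p = 0.00323), which was not called without replicate 1 of 14.5 dpp. The axis gene Hormad1 went from 2.86, 2.79 and 2.97 FPKM at 8.5 dpp to 5.70 and 24.7 at 14.5 dpp and 183, 179 and 177 at 24.5 dpp, with no overlap between these ages. Hormad2 followed the same order, at 3.14, 2.94 and 2.5, then 5.52 and 7.58, then 43.3, 45.5 and 37.5 FPKM. Mei4, a partner of SPO11 activity, had its highest median at 14.5 dpp (1.83 and 2.52 FPKM) and stood at 0.853, 0.808 and 2.10 at 24.5 dpp, a call that was lost without replicate 1 or 2 of 24.5 dpp or replicate 2 of 14.5 dpp. Trip13, whose product removes HORMAD proteins from the axis, was also highest at 14.5 dpp (7.85 and 4.08 FPKM) and fell to 1.81, 1.92 and 2.78 at 24.5 dpp (-1.09, adjusted p = 0.0101), which was not called without replicate 1 of 14.5 dpp. Mei1 and Rec114 rose by 14.5 dpp (0.53 and 1.26, adjusted p = 0.0366 and 0.0495), but Mei1 was not called without either testis of 14.5 dpp or without replicate 1 or 2 of 8.5 dpp, nor Rec114 without replicate 2 of 14.5 dpp or replicate 2 or 3 of 8.5 dpp. For Rec114, 1 testis of 8.5 dpp had more than 1 of 14.5 dpp (6.89 and 5.90 FPKM).

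In the strand invasion group, the recombinase gene Dmc1 measured 0.765, 0.553 and 0.448 FPKM at 8.5 dpp, 1.57 and 7.11 at 14.5 dpp and 20.4, 22.3 and 24.5 at 24.5 dpp, and 5.36, 5.90 and 5.75 at 36.5 dpp. Each of its first 2 steps was a rise, of 1.53 (standard error 0.31, adjusted p = 0.00151) and 2.35 (standard error 0.31, adjusted p = 1.68e-05). Spata22 and Meiob encode partners that bind the single strands of resected ends. Spata22 was listed at 0, 0.114 and 0 FPKM at 8.5 dpp and 0 and 3.63 at 14.5 dpp, and stood at 80.2, 66.5 and 58.8 at 24.5 dpp, which was the largest rise of a member in this step (5.00, standard error 0.42, adjusted p = 2.18e-07). Meiob held 0.775 and 1.82 FPKM at 14.5 dpp and 22.8, 24.4 and 23.6 at 24.5 dpp, and Mcmdc2, a helicase-like gene of the same step, held 1.77 and 2.81 and then 30.6, 35.0 and 30.2. Both were far above the younger testes in all 3 libraries of 24.5 dpp. Psmc3ip, which encodes the DMC1 accessory factor HOP2, was called in no later step and measured 9.42 and 9.91 FPKM at 14.5 dpp, 54.0, 50.1 and 65.6 at 24.5 dpp and 88.5, 56.1 and 66.6 at 53.5 dpp. Tex15, required for loading recombinases, had its highest median at 14.5 dpp, like Brca1, with 61.7 and 87.2 FPKM in these testes against 10.8, 11.1 and 12.1 at 8.5 dpp (2.59, standard error 0.22, adjusted p = 1.69e-06). Tex15 was 35.4, 36.6 and 64.7 FPKM at 24.5 dpp, lower than at 14.5 dpp except without replicate 1 or 2 of 24.5 dpp or replicate 2 of 14.5 dpp, where it was not called, and 15.4, 13.6 and 18.0 at 36.5 dpp. Brca1, Brca2, Bard1 and Rad51c, which also repair breaks in dividing somatic cells, were expressed from 8.5 dpp on, with medians at that age between 43.1% (Brca2) and 85.8% (Brca1) of their in vivo maximum. None of these 4 passed the test with its fold limit in either step from 8.5 to 24.5 dpp, and Brca1, Brca2 and Rad51c fell from 24.5 to 30.5 dpp (Brca2 fell by 1.01 and Rad51c fell by 1.16 on the log2 scale).

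Of the crossover genes, 4 of 5 were called higher at 24.5 than at 14.5 dpp, of which Msh5 and Mlh3 had both medians at the filter. Hfm1, a helicase gene, measured 0.212 and 0.415 FPKM at 14.5 dpp and 9.67, 9.84 and 7.87 at 24.5 dpp, and like Msh4 it was tested through the ages where it is high. Msh5 went from 0.689 and 2.92 to 6.58, 9.10 and 9.35 FPKM and Mlh3 from 10.2 and 11.3 to 28.3, 29.4 and 22.4, while Msh4 stayed low, at 1.40, 3.32 and 1.07 FPKM in the testes of 24.5 dpp, and was listed at 0 in 14 of the 29 libraries. Eme1, part of a nuclease that cuts joined DNA, had another course, with 5.93, 7.04 and 5.89 FPKM at 8.5 dpp, 5.51 and 2.61 at 14.5 dpp and 9.13, 7.41 and 8.70 at 30.5 dpp, and none of its 5 steps passed. Both telomere genes found rose in both early steps, although the first rise of Majin was not called without replicate 2 of 14.5 dpp. Majin held 0.0901, 0.150 and 0.192 FPKM at 8.5 dpp, 0.922 and 2.89 at 14.5 dpp and 10.3, 7.77 and 10.8 at 24.5 dpp, and Terb2 held 0.699, 0.560 and 0.707, then 2.05 and 4.82, then 10.1, 10.7 and 11.5. Both fell from 24.5 to 30.5 dpp, by 1.46 and 0.93 on the log2 scale, with adjusted p = 9.6e-05 and 0.000374, and that of Terb2 was not called without replicate 2 of 30.5 dpp or replicate 3 of 24.5 dpp. In break signalling, Mdc1, which spreads the γH2AX mark over the unsynapsed sex chromosomes, stood at 15.5, 16.4 and 19.0 FPKM at 8.5 dpp, 16.4 and 16.6 at 14.5 dpp and 83.8, 77.7 and 70.2 at 24.5 dpp (2.15, standard error 0.14, adjusted p = 2.3e-08). The kinase gene Atm ranged from 1.13 to 6.12 FPKM in all uncultured testes and was called in none of the 5 steps.

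The 2 testes of 14.5 dpp differed from each other over the set. Replicate 2 was higher than replicate 1 for 23 of the 27 members, with a median ratio of 1.40 over the 24 members above 0 in replicate 1. The germ cell markers Ddx4, Dazl and Mael summed to 120.1 and 252 FPKM in the same order, the 6 of 7 spermatogonial markers found to 331 and 341 and the 6 Sertoli markers to 1302 and 1848. Leydig markers summed to 142 and 299.5 FPKM, whereas replicate 2 was the lower for peritubular (329 and 195), endothelial (29.3 and 23.1) and dividing cell markers (352 and 283). Whether the 2 testes differed in their share of germ cells was not tested.

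Replicate 3 of 24.5 dpp also stood apart in its markers. Its Leydig sum was 63.6 FPKM against 589 and 354 in the other testes of that age, its pachytene and later spermatocyte sum 1149 against 1699 and 1867, and its spermatogonial sum 227 against 182 and 149. It held the highest level of the 3 for 15 members, Mei1, Mei4, Rec114, Trip13 and Tex15 among them, and without it the number called from 14.5 to 24.5 dpp was 19, as with it. Markers of the cells of the testis moved over the same ages. All 3 germ cell markers rose in both steps from 8.5 to 24.5 dpp, and their sum, led by Mael over all libraries, was 33.1, 32.1 and 32.8 FPKM at 8.5 dpp, 470.3, 564 and 574 at 24.5 dpp, 418, 458 and 509 at 36.5 dpp and 380.2, 403 and 416 at 53.5 dpp. The 6 markers of pachytene and later spermatocytes, led by Hspa2, all rose from 14.5 to 24.5 dpp, from a sum of 30.1 and 36.1 FPKM to 1699, 1867 and 1149, and stood at 2895, 3094 and 2795 at 30.5 dpp. Spermatid markers, led by Tnp1, summed to 13.0, 12.7 and 12.8 FPKM at 24.5 dpp, where Prm1 and Tnp1 were listed at 0 in all 3 libraries, and to 15734, 17295 and 11763 at 53.5 dpp. From 8.5 to 14.5 dpp 3 of 6 spermatogonial, 2 of 6 pachytene and later spermatocyte and 2 of 6 Sertoli markers were called higher, and 1 of 3 endothelial and 1 of 6 dividing cell markers lower. From 14.5 to 24.5 dpp 4 of 6 spermatogonial, 4 of 6 Sertoli, 3 of 3 peritubular, 3 of 3 endothelial, 1 of 4 macrophage and 2 of 6 dividing cell markers were lower, and 1 Sertoli marker was higher. While the sum of the members fell after 24.5 dpp, spermatid markers rose (5 of 5 in each of the next 2 steps) and Sertoli markers fell (6 of 6 from 24.5 to 30.5 dpp). In the step to 30.5 dpp, 5 of 6 spermatogonial, 1 of 3 germ cell and 1 of 6 dividing cell markers were also lower. In that step 2 of 6 pachytene and later spermatocyte markers and 1 of 4 macrophage markers were higher. Ldhc at 14.5 dpp, and Prm1, Tnp1, Acrv1 and Adgre1 at 24.5 dpp, were under 0.5 FPKM and were tested through later ages. The part of these shifts in cell content in the course of the members was not tested.

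**Figure D2:**
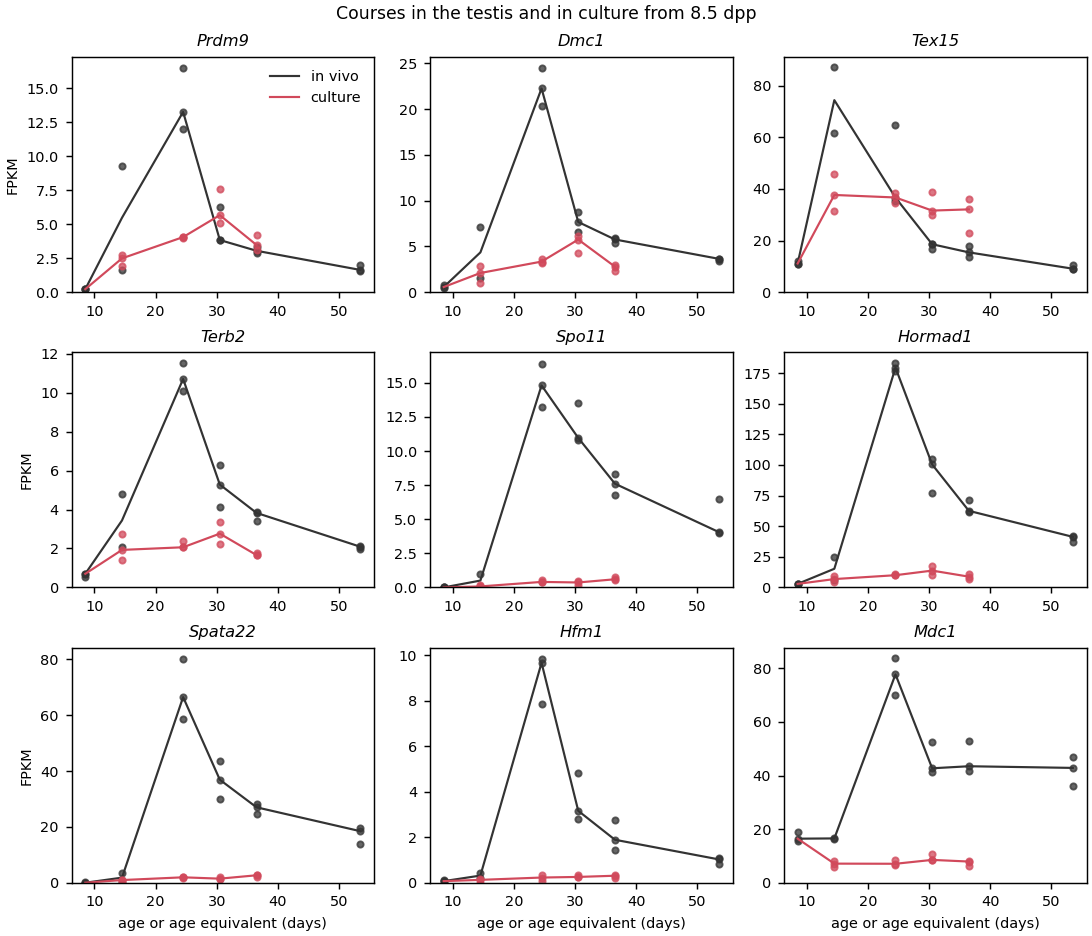
FPKM of 9 members against age or age equivalent in days, in uncultured testes (dark) and in culture (red); points are libraries and lines join group medians, both starting from the testes of 8.5 dpp. In culture Tex15 reaches 31.3 to 45.7 FPKM at D6, whereas Spata22 stays at or below 2.75 FPKM at all 4 times.

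Among the steps compared in culture, most of the calls came in that from 8.5 dpp to D6. D28 was compared with D16 directly, so the steps from D16 to D22 and from D22 to D28 were not tested. From 8.5 dpp to D6, 8 of 25 tested members rose (Prdm9, Hormad1, Dmc1, Meiob, Spata22, Tex15, Majin and Terb2) and 2 fell (Eme1 and Mdc1), against 9.9% of 11539 genes higher and 6.23% lower. From D6 to D16, Spo11 and Spata22 rose and Eme1 fell, with 1.38% of all genes higher and 1.83% lower; in 1 fit of all 10 groups the calls of Spo11 and Spata22 were lost, and Spata22 also lost it without replicate 1 or 2 of D16 or replicate 3 of D6. Of the rises to D6, Hormad1 was not called without replicate 1 of D6, nor Meiob without replicate 1 or 2 of D6 or replicate 1 or 3 of 8.5 dpp. From D16 to D28 limma called 0 members (0.702% of all genes higher and 0.234% lower), and 4 had an unadjusted p under 0.05, 1 higher and 3 lower. From 8.5 dpp to D28, 10 members were higher and 3 lower (Eme1, Bard1 and Mdc1), against 13.6% and 10.5% of all genes; Msh5, among the 10, was not called without replicate 1 or 2 of D28 or replicate 1 or 3 of 8.5 dpp, nor under 6 other settings. Msh4 and Hfm1 were below the 0.5 FPKM filter in these groups and were not tested. Prdm9, Meiob, Spata22 and Majin passed it through the cultured groups alone and Spo11 through D28 alone, so a higher level than at 8.5 dpp was in part set by the filter for these 5; without them 4 members rose to D6 and 5 to D28. Over the first 6 days germ cell markers (sums of 33.1, 32.1 and 32.8 FPKM, then 109, 85.5 and 56.9) had 1 of 3 and spermatogonial markers (220.2, 210.1 and 207, then 349, 359.7 and 379) 2 of 6 called higher. Of the Leydig markers 4 of 5 were lower (229, 329 and 253 FPKM, then 14, 11.9 and 18.8), and of the peritubular markers 3 of 3 (382, 349.7 and 429, then 101, 121 and 221). Sertoli markers (2 of 6), pachytene and later spermatocyte markers (2 of 4), endothelial markers (2 of 3) and macrophage markers (2 of 3) were higher, and 2 of 6 dividing cell markers were lower (521, 445 and 452 FPKM, then 216, 225 and 207). The pachytene and later spermatocyte markers called were Piwil1 and Ovol1. Piwil1 and the macrophage marker Adgre1 were under 0.5 FPKM at 8.5 dpp and passed the filter through cultured groups alone. Their rise was thus in part set by the filter. The part of these markers in the calls of the members was not tested. The summed level of the set was 129, 142 and 110.4 FPKM at D6, 129, 130.1 and 133 at D16, 160.1, 137 and 132 at D22 and 101, 136 and 123 at D28, so all 12 cultured libraries lay below both testes of 14.5 dpp, and D6 and D28 overlapped with 8.5 dpp.

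Tex15 showed the highest level in culture, with 37.7, 45.7 and 31.3 FPKM at D6, 36.7, 34.6 and 38.3 at D16, 38.7, 29.7 and 31.6 at D22 and 22.9, 36.1 and 32.1 at D28. All of these lay above the testes of 8.5 dpp and below the testes of 14.5 dpp, and the rise to D6 was 1.66 (standard error 0.16, adjusted p = 3.7e-06). Prdm9 measured 2.73, 2.48 and 1.94 FPKM at D6, 4.05, 3.95 and 4.07 at D16, 7.57, 5.66 and 5.11 at D22 and 4.22, 3.47 and 3.08 at D28, which is between the 2 testes of 14.5 dpp in each library. All 12 cultured libraries lay above those of 8.5 dpp, which were under the filter. Dmc1 held 2.80, 2.09 and 1.05 FPKM at D6, 3.62, 3.33 and 3.23 at D16, 5.74, 6.18 and 4.23 at D22 and 2.78, 3.00 and 2.34 at D28, against 8.72, 6.6 and 7.66 in the testes of 30.5 dpp. The D22 medians of Prdm9 and Dmc1 were the highest of their culture courses. Terb2, at 2.75, 1.93 and 1.43 FPKM at D6 and 1.65, 1.76 and 1.66 at D28, and Majin, at 0.833, 1.11 and 0.964 and 0.700, 0.748 and 0.737, were above all libraries of 8.5 dpp at both times.

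Of the 6 members with the largest rises from 14.5 to 24.5 dpp in the testis, Spata22, Hormad1, Spo11 and Hfm1 stayed below the higher of the 2 testes of 14.5 dpp in all cultured libraries, while Meiob and Mcmdc2 exceeded it in at least 1. Spo11 was 0.198, 0.0722 and 0 FPKM at D6, 0.361, 0.571 and 0.402 at D16, 0.362, 0.436 and 0.186 at D22 and 0.764, 0.576 and 0.597 at D28, against 3 libraries listed at 0 at 8.5 dpp. Its culture medians reached the 0.5 FPKM filter at D28 alone, so it was tested only because of the group in which it is highest, and its calls in culture support nothing further. Spata22 measured 1.08, 0.952 and 0.307 FPKM at D6, 2.04, 1.94 and 1.74 at D16, 1.46, 2.03 and 1.39 at D22 and 2.75, 2.05 and 2.67 at D28. Hormad1, at 8.98, 6.80 and 4.11 FPKM at D6, 9.97, 9.72 and 10.8 at D16, 17.7, 13.7 and 10.2 at D22 and 6.72, 11.2 and 8.77 at D28, never left the range spanned by the testes of 8.5 and 14.5 dpp. Hfm1 did not exceed 0.360 FPKM in any cultured library, and Msh4 was listed at 0 in 10 of 12 and did not exceed 0.0619. Meiob reached 3.54, 1.29 and 2.09 FPKM at D22, and Mcmdc2 kept to 1.70 to 2.92 FPKM, against 1.77 to 2.86 in the testes of 8.5 and 14.5 dpp.

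Some members were lower in culture than before it, with 2 of 25 called at D6 and 3 of 25 at D28. Over all genes 6.23% and 10.5% were called lower in these comparisons. Mdc1 went from 15.5, 16.4 and 19.0 FPKM at 8.5 dpp to 5.70, 8.25 and 7.12 at D6 (-1.17, standard error 0.14, adjusted p = 2.1e-05) and stood at 7.90, 6.26 and 8.07 at D28. Eme1 fell at D6 and again at D16, from 5.93, 7.04 and 5.89 FPKM at 8.5 dpp to 2.45, 2.12 and 2.08 and then 0.551, 1.11 and 0.747 (-1.18 and -0.85, adjusted p = 1.69e-06 and 0.000241). Bard1, the partner of BRCA1, was 11.6, 11.4 and 15.9 FPKM at 8.5 dpp and 4.00, 5.40 and 6.52 at D28 (-1.15, standard error 0.16, adjusted p = 3.36e-05), which was not called without replicate 1 of D28. Psmc3ip, Brca1, Brca2 and Rad51c also had all D28 libraries below all those of 8.5 dpp, with differences from -0.92 (Brca1) to -0.52 (Brca2) and adjusted p of at most 0.00914, but their medians differed by less than 2 times. Of the 6 markers of dividing cells, led by Pcna, 4 were lower at D28 than at 8.5 dpp and 0 were higher, with sums of 521, 445 and 452 FPKM at 8.5 dpp and 127, 133 and 147 at D28. Their part in the lower levels of these members was not tested.

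Against testes of the same age, most members were called lower at D16. At D6, Mdc1 alone was called lower than at 14.5 dpp (-1.14, standard error 0.16, adjusted p = 0.0108) and 0 of 25 members were higher by limma, against 2.37% of 11309 genes lower and 5.57% higher. At an unadjusted p under 0.05, 10 of the 25 were lower and 0 higher. Without replicate 1 of 14.5 dpp 6 members were called lower, and without replicate 2 Eme1 was called lower and Mdc1 was not. At D16, 22 of 27 members were lower than at 24.5 dpp and 0 were higher by limma, also at an unadjusted p under 0.05 (18.3% of 11658 genes lower, 25.3% higher). Spo11, Hfm1 and Msh4, among the 22, were under 0.5 FPKM at D16 and tested through 24.5 dpp alone, so they could only be lower, which leaves 19; without replicate 3 of 24.5 dpp Mei4 was called higher. D22 tissues had 12 members lower than testes of 30.5 dpp and 2 higher (Mei4 and Trip13), against 22.9% and 42.1% of 12118 genes. D28 tissues had 14 lower than testes of 36.5 dpp and 3 higher (Mei4, Trip13 and Tex15), against 23.6% and 46.7% of 12210 genes. The same holds for Spo11, Hfm1 and Msh4 at D22 and for Hfm1 and Msh4 at D28, which leaves 9 and 12 lower, and for the higher level of Mei4 at both times. Since both courses start from the testes of 8.5 dpp, these contrasts are also tests of the difference between the courses.

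**Figure D3:**
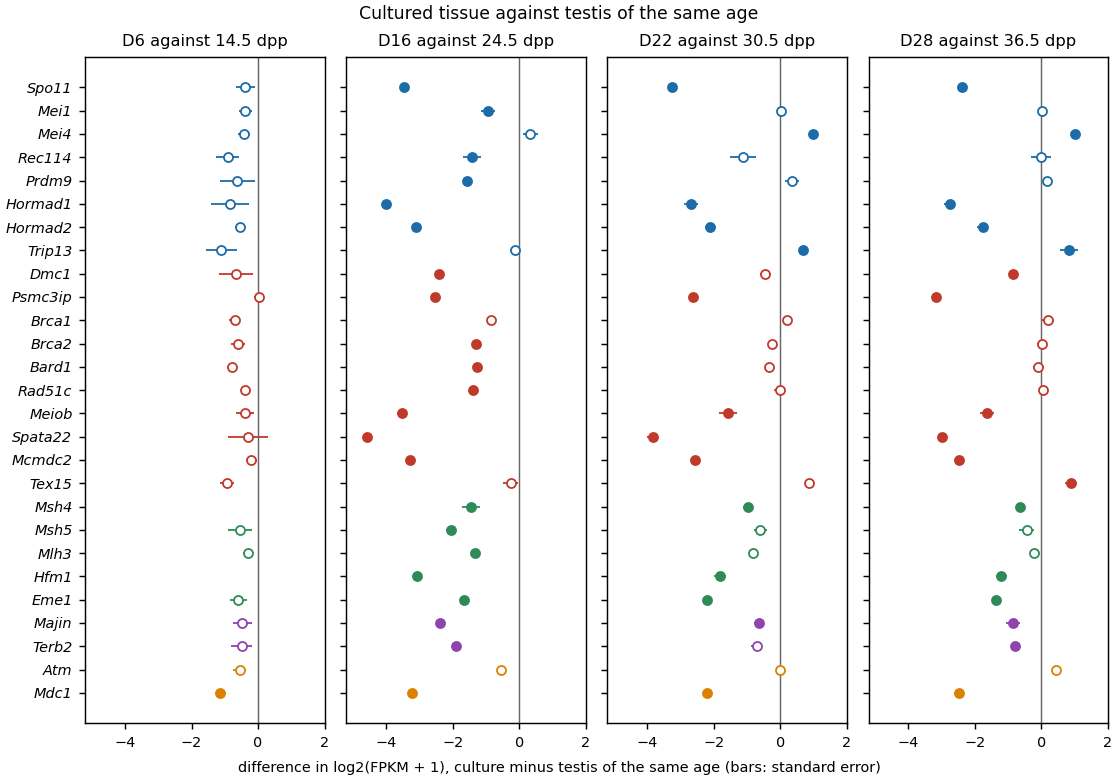
Difference in log2(FPKM + 1) between cultured tissue and testes of the same age for each member, by role (colours as for the map of levels); bars are standard errors and filled points are called genes, and Msh4 and Hfm1 were not tested at D6. At D16 the points of 22 members are filled and lie left of 0, and at D28 those of Mei4, Trip13 and Tex15 are filled and lie right of it.

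The median difference of the members was -1.66 at D16 (all genes 0.12), -0.71 at D22 (all genes 0.51) and -0.66 at D28 (all genes 0.64). Quantile normalization moved the median of all genes to 0.35 at D22 and 0.41 at D28. Relative to the median of all genes, the members lay at -1.30 at D28 as deposited and at -1.31 after quantile normalization. The same scaling moved the median of all genes by 0.11 from 24.5 to 30.5 dpp and by 0.20 from 36.5 to 53.5 dpp. With it, 6 members not called at D28 changed sign, and Trip13 lost its call (adjusted p = 0.0733).

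The largest gaps at D16 were those of Spata22 (-4.57, standard error 0.13, adjusted p = 3.7e-06) and Hormad1 (-4.02, standard error 0.08, adjusted p = 3.7e-06). Spo11, at 0.361, 0.571 and 0.402 FPKM against 14.8, 16.4 and 13.2 in the testes of 24.5 dpp, was tested through the latter alone. Mdc1 (-3.21), Hormad2 (-3.11), Meiob (-3.53) and Mcmdc2 (-3.29) were more than 3 log2 units lower. Mei4, Trip13, Brca1, Tex15 and Atm were the 5 members not called at D16.

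At D28 the order of the gaps was different from that at D16. Psmc3ip, at 6.14, 6.92 and 6.85 FPKM against 62.0, 65.6 and 78.3, showed the largest gap (-3.18, standard error 0.12, adjusted p = 2.99e-07), followed by Spata22 (2.75, 2.05 and 2.67 against 24.7, 27.0 and 28.1 FPKM). Prdm9 differed by 0.17 (standard error 0.12, adjusted p = 0.227) and was not called, with 4.22, 3.47 and 3.08 FPKM at D28 against 3.04, 3.31 and 2.84 at 36.5 dpp. Mei4 was higher in culture, at 1.40, 1.59 and 1.29 FPKM against 0.160, 0.117 and 0.325, and so was Tex15, at 22.9, 36.1 and 32.1 against 15.4, 13.6 and 18.0 FPKM (0.89, standard error 0.19, adjusted p = 0.00268). Trip13 measured 0.814, 2.01 and 2.53 FPKM against 0.680, 0.172 and 0.739, with no overlap. Over all genes the median difference in this comparison was 0.64, above that of Prdm9, and 46.7% of genes were called higher. Without replicate 2 or 3 of D28 or replicate 2 of 36.5 dpp, Tex15 and Trip13 were not called, and Mei4 was then the 1 member called higher. The lower level of Dmc1 was not called without replicate 3 of D28 or replicate 2 of 36.5 dpp.

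Cell markers separated the same groups. Pachytene and later spermatocyte markers, all 6 lower in culture, summed to 19.2, 19.1 and 22.0 FPKM at D16 and 27.9, 20.1 and 21.9 at D28, against 1699, 1867 and 1149 at 24.5 dpp and 3008, 2701 and 2794 at 36.5 dpp. Hspa2 was the most abundant of them, and Ldhc was listed at 0 in all libraries of D16 and D22. Spermatid markers were lower at D28 than at 36.5 dpp (5 of 5, sums of 3.85, 4.59 and 3.91 against 4249, 4414 and 2896 FPKM), and Prm1, Tnp1 and Acrv1 were listed at 0 in all D28 libraries. Prm1, Tnp1, Acrv1 and Tssk2, like Ldhc and Pgk2, were under 0.5 FPKM at D28. They were tested through 36.5 dpp alone and could only be lower. Germ cell markers summed to 109, 85.5 and 56.9 FPKM at D6, 121, 97.5 and 107 at D16, 123, 114 and 77.4 at D22 and 55.1, 108 and 67.9 at D28, which is below all testes from 24.5 dpp on and below replicate 2 of 14.5 dpp, and 2 of 3 were lower at D28 than at 36.5 dpp. Spermatogonial markers, led by Uchl1, were higher (6 of 6; sums of 299, 297 and 335 FPKM at D28 and 58.7, 57.4 and 50.0 at 36.5 dpp), as were Sertoli markers, led by Clu (6 of 6; 3871, 3595 and 4291 and 534, 606 and 468 FPKM). Endothelial markers, led by Cdh5, were higher (3 of 3; 69.6, 45.7 and 55.2 and 3.52, 3.72 and 1.37 FPKM), and Leydig markers, led by Insl3, were lower (4 of 5; 34.8, 21.9 and 23.5 and 374, 242 and 225 FPKM). Of 3 macrophage markers tested, led by Cd68, 2 were higher and 1 lower (17.3, 9.04 and 10.3 and 6.41, 5.52 and 5.01 FPKM), and Cd163 was listed at 0 in all cultured libraries. Of the dividing cell markers 1 was higher and 3 were lower (127, 133 and 147 and 221, 240.1 and 237 FPKM). Of the 3 peritubular markers, led by Acta2, 0 were called by limma and 0 had an unadjusted p under 0.05 (sums of 44.4, 69.7 and 74.9 and 59.4, 35.0 and 18.0 FPKM; adjusted p from 0.061 to 0.833). At D16, 1 of 6 spermatogonial, 3 of 6 Sertoli and all 3 endothelial markers were higher than at 24.5 dpp. All 3 germ cell, 2 of 2 tested spermatid, 4 of 5 Leydig and 4 of 6 dividing cell markers were lower. Of 4 macrophage markers 3 were higher and 1 lower. At D22, 5 of 6 spermatogonial, 6 of 6 Sertoli and 3 of 3 endothelial markers were higher than at 30.5 dpp. Lower at D22 were 2 of 3 germ cell, 5 of 5 spermatid, 4 of 5 Leydig and 4 of 6 dividing cell markers (1 higher). At D16, Piwil1, Ldhc, Pgk2, Tssk2, Cyp17a1, Insl3 and Cd163 were under 0.5 FPKM, were tested through 24.5 dpp alone and could only be lower. The same holds at D22 for Ldhc, Pgk2, Prm1, Tnp1, Acrv1 and Tssk2. Adgre1 and Kdr were under 0.5 FPKM at 24.5 dpp, and Kdr at 36.5 dpp, so there they could only be higher in culture. How much of the differences in the members goes with these cell markers was not tested.

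**Figure D4:**
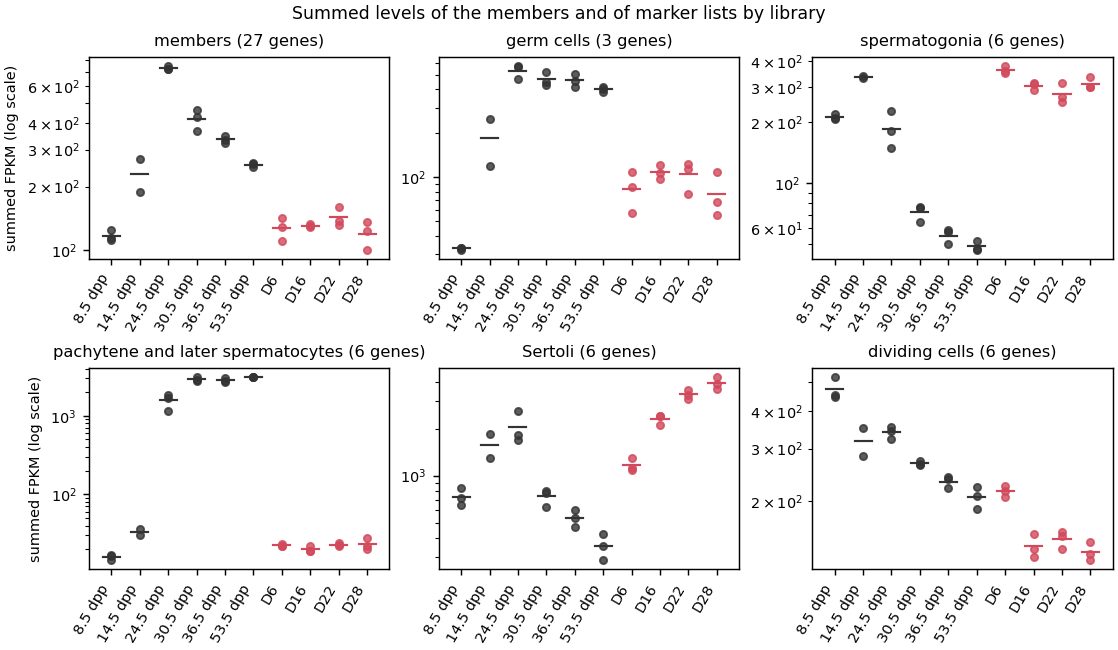
Summed FPKM (log scale) of the 27 members and of 5 marker lists in each library, for uncultured testes (dark) and cultured tissue (red); short lines are group means. Sums of the pachytene and later spermatocyte markers in culture (19.1 to 27.9 FPKM) lie between those of 8.5 and 14.5 dpp, and most of each is Hspa2 (14.8 to 23.0 FPKM in culture). The Sertoli sums of D28 (3595 to 4291 FPKM) are the highest of all libraries, and most of each is Clu (2618 to 3391 FPKM).

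The study also set D16, D22 and D28 tissues against the testes of 14.5 dpp, which share their control libraries. In 1 fit of these 4 groups, 6 of 25 members were lower and 0 higher at D16 (Rec114, Trip13, Bard1, Tex15, Eme1 and Mdc1), against 6.14% of 11517 genes lower and 6.87% higher. At D22 5 were lower and 0 higher (5.99% and 7.76% of all genes), and at D28 6 were lower and 0 higher (6.88% and 8.4%). Trip13, Bard1, Tex15 and Eme1 were lower at all 3 times, and no member had an unadjusted p under 0.05 in the upward direction. Tex15 differed from 14.5 dpp by -0.99 (standard error 0.20, adjusted p = 0.00541) at D16 and -1.27 (standard error 0.20, adjusted p = 0.00115) at D28, Eme1 by -1.44 and -1.12, and Bard1 by -1.15 and -1.22. Prdm9 and Dmc1 stayed at differences of -0.05 and -0.06 at D16 with standard errors of 0.43 and 0.37, so neither a gain nor a loss could be shown. In the same contrasts 4, 5 and 5 of 6 dividing cell markers were lower at D16, D22 and D28. All 5 Leydig and all 3 peritubular markers were lower each time. Germ cell markers were lower in 1, 0 and 2 of 3. Of 5 pachytene and later spermatocyte markers, 2, 1 and 1 were lower. Among them, Pgk2 was under 0.5 FPKM in culture, was tested through 14.5 dpp alone and could only be lower. Endothelial (3, 2 and 2 of 3) and macrophage markers (2 of 3 each time) were higher. The macrophage marker Adgre1 was under 0.5 FPKM at 14.5 dpp, was tested through cultured groups alone and could only be higher. Of 6 Sertoli markers, 1 was higher each time and 1 lower at D16. The part of these markers in the calls was not tested.

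These contrasts depended on which testis of 14.5 dpp was kept, the lone testis being assumed to vary like the other groups. Without replicate 1, 12 members were lower at D16, 6 at D22 and 11 at D28 (6.91%, 6.56% and 7.75% of all genes), and 0 were higher by limma. Without replicate 2, 4 were higher at D16 (Spo11, Prdm9, Dmc1 and Spata22), 4 at D22 (Prdm9, Hormad1, Dmc1 and Spata22) and 3 at D28 (Spo11, Prdm9 and Spata22), and 5, 3 and 4 were lower. Spo11 and Spata22 were listed at 0 in replicate 1 and were then tested through cultured groups alone (Spo11 through D28), so they could only be higher, which leaves Prdm9 and Dmc1 at D16, these and Hormad1 at D22, and Prdm9 at D28. Over all genes the shares were then 6.09%, 7.79% and 8.1% higher and 5.7%, 6% and 6.75% lower. Eme1 and Bard1 were called lower at all 3 times with either testis left out, whereas Tex15 was not called without replicate 2, nor Trip13 without replicate 1. Rec114 at D16 and D22 and Terb2 at D28 also lost their calls without any 1 of the 3 cultured libraries of that time, and Tex15 at D16 without replicate 2 of D16. The directions of Prdm9, Dmc1 and Hormad1 against 14.5 dpp were thus not settled by these libraries.

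The level that members reached in culture was set beside their highest level in the testis. The highest culture median ranged from 3.18% of the highest in vivo median (Hfm1) to 88.4% (Mei4), apart from Msh4, whose culture medians were listed at 0, and was 25.8% in the median member. Spata22 (4.01%), Spo11 (4.03%), Hormad1 (7.65%), Meiob (8.88%), Mcmdc2 (8.97%) and Hormad2 (9.87%) also stayed under 10%. By role, the median was 43.7% for break formation and axis, 32.3% for strand invasion and 23.0% for crossover. The 2 telomere genes reached 14.3% (Majin) and 25.8% (Terb2), and the 2 genes of break signalling 11.0% (Mdc1) and 72.5% (Atm). In 25 of 27 members all 12 cultured libraries lay below all libraries of the group with the in vivo maximum, the exceptions being Mei4 and Rec114. Set against 14.5 dpp, the highest culture median was at or above the 14.5 dpp median in 9 members and at 88.4% of it in the median member. Across the 27 genes, which are not independent replicates, the share of the maximum reached at 14.5 dpp and that reached in culture had a Spearman correlation of 0.93, but both shares are divided by the same maximum, which by itself can give a correlation, and for the 5 members with their maximum at 14.5 dpp the first is fixed at 100%. Over the 20 members with their maximum at 24.5 dpp, with the same shared denominator, it was 0.96. The 5 members with the STRA8 letters reached from 3.18% (Hfm1) to 42.7% (Prdm9), and 9 members lay above Prdm9.

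**Figure D5:**
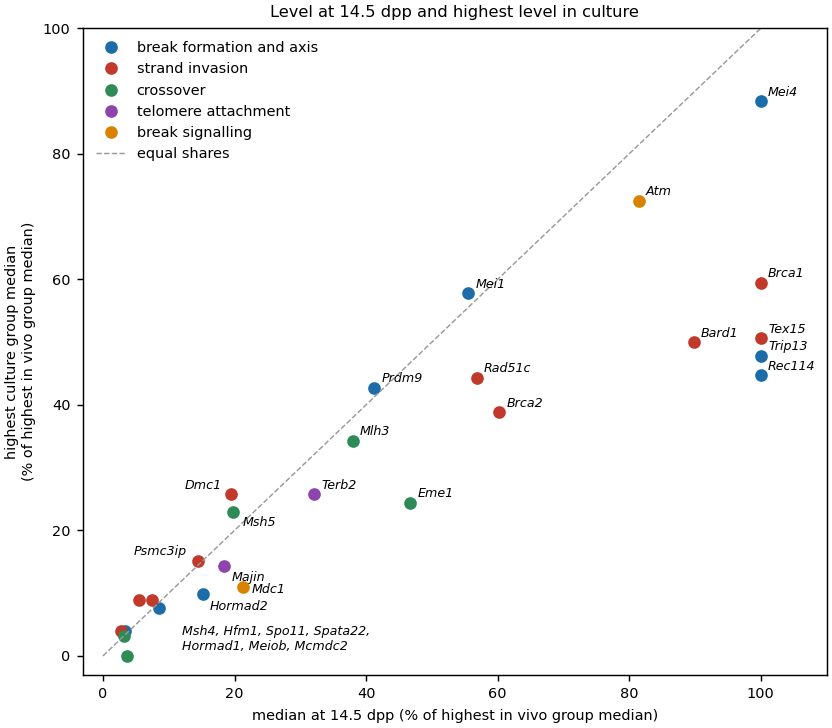
Each point is a member, coloured by role, with its median at 14.5 dpp (x axis) and its highest culture median (y axis), both in % of its highest in vivo group median; the dashed line marks equal shares. Most members lie near or below the line, and Brca1, Tex15, Trip13 and Rec114 lie farthest below it, at 44.7% to 59.4% on the y axis.

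Of 40 other recombination genes listed beside the set, 27 were found and up to 26 tested. From 14.5 to 24.5 dpp 6 of 26 rose and 0 fell by limma, with 5 lower at an unadjusted p under 0.05 (14.2% of all genes higher, 21.4% lower); the 3 largest rises were those of Cntd1, a crossover gene (0.314 and 0.943 FPKM, then 87.2, 97.9 and 66.5; 5.71, standard error 0.22, adjusted p = 9.03e-11), of Swi5, which forms a recombination mediator (118 and 139, then 463, 469 and 414; 1.80), and of the DNA repair gene Xrcc2 (11.9 and 10.5, then 39.7, 42.3 and 36.4; 1.72). In culture, 0 of 25 were called between 8.5 dpp and D6, where limma gave unadjusted p under 0.05 for 2 that were higher and 8 that were lower, against 9.9% of all genes called higher and 6.23% lower. Between D28 and 36.5 dpp 6 of 25 were higher in culture and 7 lower, against 46.7% and 23.6% of all genes. Cntd1 stayed at 0.791, 0.652 and 0.463 FPKM at D28 against 48.1, 38.9 and 37.7 at 36.5 dpp (-4.70, standard error 0.14, adjusted p = 7.64e-08), and Prr19, which works with CNTD1, at 6.90, 4.25 and 5.61 against 93.7, 109 and 97.7 (-3.96). Swi5 was also lower in culture (-1.91), whereas its partner Sfr1 was higher, at 148, 169.8 and 176 FPKM against 26.0, 25.1 and 25.9 (2.63, standard error 0.11, adjusted p = 3.89e-07). Rpa3, part of the complex that coats single strands, and Rad51d were the other largest gains (1.61 and 1.54). The difference between the lists was not tested.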

How the data were processed

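RNA-seq libraries of rat testes and of cultured testicular tissue were used, with groups taken from the sample labels. The authors deposited 1 table of FPKM values for 17322 genes; the submitters' notes name bcl2fastq 2.17.1.14, STAR 2.5.2a and the genome build rn6. Depth per library is unknown, since read counts were not used here. Of 30 libraries, 29 were analysed, and 1 of 14.5 dpp, titled an outlier, was left out because all its values were 0; no libraries were duplicates. On log2(FPKM + 1), and without genes whose median stayed under 0.5 FPKM in each group of a fit, limma 3.58.1 in R 4.3.3 was run with Benjamini-Hochberg adjustment over all genes tested. Calls required an adjusted p up to 0.05 together with medians that differed by 2 times or more. The 6 ages in vivo shared 1 fit, as did 8.5 dpp with the 4 culture times, and 14.5 dpp with D16, D22 and D28; groups of matched age were compared in fits of 2 groups.

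All members found were named, and of the list of other recombination genes the 3 largest rises and falls among those called from 14.5 to 24.5 dpp and between D28 and 36.5 dpp. Marker lists were those of germ cells, spermatogonia, pachytene and later spermatocytes, spermatids, Sertoli, Leydig, peritubular, macrophage, endothelial and dividing cells. The members and lists were chosen with earlier results of these data known. Nothing states that the uncultured libraries came from separate litters, so p-values measure the spread between these samples. Alternatives were a pseudocount of 0.1, no filter, quantile normalization, 1 fit of all 10 groups, the adjusted p alone, a trended prior, the replicate block, each library left out and, chosen after seeing the data, fits of the 2 groups compared. Sums, motifs and figures were made with Python 3.11.15, numpy 2.4.6, pandas 2.3.3, scipy 1.17.1 and matplotlib 3.10.9. The fits were tested on simulated data.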

Additional observations from a re-analysis of the deposited data

Results flagged for a closer look

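For 2 members, Psmc3ip and Mdc1, the libraries lay on opposite sides of the start at 8.5 dpp, with all D28 libraries below and all libraries of 36.5 dpp above all those of 8.5 dpp. The lower level of Psmc3ip at D28 than at 8.5 dpp was not called, since its medians differed by less than 2 times. D28 tissues and testes of 36.5 dpp differed by -3.18 in log2(FPKM + 1) for Psmc3ip (standard error 0.12, adjusted p = 2.99e-07 by limma) and by -2.48 for Mdc1 (standard error 0.14, adjusted p = 1.99e-06). Germ cell, spermatocyte and Sertoli markers also differed between these groups, and their part in the difference was not tested.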

How the results depend on the processing

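No member changed direction among those called in the comparisons as reported. Members not called there could be called in either direction against 14.5 dpp, depending on the testis left out. Prdm9, Dmc1 and Spo11 at D16, Spata22 at D22 and Prdm9 at D28 were lower without replicate 1 and higher without replicate 2. Without replicate 2, Spo11 and Spata22 were tested through cultured groups alone and could only be higher. With the adjusted p alone and no limit on the ratio of medians, the number of members called, with the share of all genes, was 23 from 24.5 to 30.5 dpp (68.8%), 8 from 30.5 to 36.5 dpp (34%), 13 from 36.5 to 53.5 dpp (38.4%), 17 from 8.5 dpp to D6 (48.2%), 5 from D6 to D16 (18.5%), 1 from D16 to D28 (3.79%) and 21 from 8.5 dpp to D28 (59.7%). Against 14.5 dpp it was 4 at D6 (15.5%), 9 at D22 (36.3%), and 11 at both D16 (33.5%) and D28 (41.1%). With 1 fit of all 10 groups, 1 member was called from D6 to D16 and 2 between D6 and 14.5 dpp; the cause was not tested. With the replicate number as a block, limma called 0 members between D6 and 14.5 dpp, Mdc1 being lost (7 had an unadjusted p under 0.05), and the other counts stayed within 1.5 times. The numbers did not pair the libraries: in 0 of 10 comparisons with 3 pairs did every pair correlate above 0.1, and in 0 did every library correlate best with its own number. With each library left out, the count ranged from 5 to 14 from 8.5 to 14.5 dpp, 0 to 1 from 30.5 to 36.5 dpp, 1 to 2 from 36.5 to 53.5 dpp, and against 14.5 dpp from 1 to 6 at D6, 4 to 12 at D16 and 5 to 11 at D28. Where 1 testis of 14.5 dpp remained, it was assumed to vary like the other groups. Of the calls of single members, 5 of 141 were lost in 1 fit of all groups, 6 with a pseudocount of 0.1, 6 with quantile normalization, 5 without the filter, 4 with the block, 1 with a trended prior, 9 of 86 in fits of the 2 groups compared (chosen after seeing the data) and 73 of 798 when a library was left out. Exact zeros and the unknown depth limit what can be said of members with low levels.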
